A study of Homo sapiens with 6 samples.

Results

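The 10 genes described here are receptors, ligands and feedback genes of EGFR, ERBB and MET signaling: the receptors *EGFR*, *ERBB2*, *ERBB3* and *MET*, the EGF-family ligands *AREG*, *EREG*, *TGFA* and *HBEGF*, and the ERK feedback genes *DUSP6* and *SPRY4*. They were chosen by gene symbol, with earlier results of these data known. Each of the 10 had a single row among the 20381 genes of the count table. RNA-seq was carried out on poly(A) RNA of HCCLM3, a human hepatocellular carcinoma (HCC) cell line. The cells carried either the *PON1* coding sequence in a lentiviral vector (PON1-OE, 3 libraries) or a negative control that the series describes as an empty lentiviral vector (NC, 3 libraries). Both are described as stable lines selected with puromycin, while the series text speaks of lysis after transfection. Whether the 3 libraries of a group came from separate infections or cultures is not given in the sources used here, so n counts libraries and the tests measure the spread between them.

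EGFR, ERBB2 and ERBB3 are receptor tyrosine kinases that act in pairs. Amphiregulin (*AREG*), epiregulin (*EREG*), transforming growth factor alpha (*TGFA*) and heparin-binding EGF-like growth factor (*HBEGF*) are made as membrane-bound precursors, cut free by ADAM proteases, and bind EGFR. ERBB2 binds no ligand of its own, and ERBB3 has little kinase activity of its own and binds neuregulins. MET is the receptor of hepatocyte growth factor (HGF), which drives growth and migration of liver epithelial cells. All of these receptors feed the RAS-RAF-MEK-ERK cascade. ERK activity induces its own inhibitors, among them the ERK phosphatase DUSP6 and the Sprouty protein SPRY4.

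The libraries held 15706664 to 17948372 rounded counts each. *PON1* was counted 0, 2 and 3 times in the NC libraries (replicates 1 to 3, the order used throughout) and 155, 181 and 167 times in the PON1-OE libraries. Every NC library was thus at or under a floor of 3 counts per library, and set against that floor *PON1* was at least 60.0-fold higher with the vector. The samples are labelled as hepatocytes, and their liver markers were mixed. The liver transcription factor gene *HNF4A* was expressed (1223 to 1492 counts), while the secreted hepatocyte products were low, with 60 to 106 counts of *APOB*, 8 to 29 of *FGB*, 4 to 13 of *ALB*, 0 to 5 of *APOA1*, 0 to 2 of *TTR* and 0 to 1 of *SERPINA1*. *APOB* had a log2FC of −0.36 (unadjusted p = 0.0456, adjusted p = 0.443, edgeR's quasi-likelihood method). Of 6 immune markers 4 had no count in any library, *PTPRC* among them, *CD14* had 0 to 5 counts and *CD68* 3514 to 4097 (log2FC 0.13, unadjusted p = 0.00943, adjusted p = 0.252, edgeR's quasi-likelihood method). Of 5 endothelial markers *CDH5* had at most 1 count, *TEK* 1 to 10 and *VWF* 5 to 12, while *PECAM1* had 216 to 249 and *KDR* 137 to 205. Of 5 fibroblast markers *COL1A1*, *COL1A2* and *PDGFRB* had at most 4 counts, while *LUM* had 191 to 264 and *DCN* 58 to 107. The summed level of the endothelial list was 22.1 to 24.8 CPM in NC against 25.3 to 28.03 CPM in PON1-OE, and that of the immune list 206 to 227 against 224 to 248 CPM. The part of these markers in the results was not tested. None of the tested marker genes had an adjusted p under 0.05. Over the 11958 genes that passed edgeR's filter on low counts, 81 (0.677%) passed an adjusted p (Benjamini-Hochberg) of 0.05 when PON1-OE was tested against NC by the quasi-likelihood (QL) method of edgeR, 60 higher (0.502%) and 21 lower (0.176%). An unadjusted p under 0.05 was reached by 1325 genes (11.1%), and in 1921 genes (16.1%) all values of a group lay on the same side of the other's. Fold changes are given as log2FC of PON1-OE against NC, so that positive values are higher in PON1-OE.

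All 10 genes passed the filter, and 0 of them had an adjusted p under 0.05, where the share over all genes was 0.677%. An unadjusted p under 0.05 was found for 3 of the 10 against 11.1% of all genes: *DUSP6* and *EGFR* with higher values in PON1-OE, and *EREG* with lower values. As the 10 were chosen with earlier results of these data known, their counts beside these shares are a description only. The median log2FC of the 10 was −0.0075, and the median over all genes tested was −0.0025. Without the filter on low counts, in DESeq2, or without NC replicate 2, 1 of the 10, *DUSP6*, passed the adjusted threshold. The genes differed far more from each other in level than between the groups.

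To compare levels between genes, CPM, which are counts relative to the library total as scaled by edgeR's TMM method, were divided by the length in kilobases of all exons of a gene in GENCODE v29, which gives RPKM. In RPKM over the 6 libraries the order was *MET* (mean 1551), *AREG* (95.7), *DUSP6* (52.9), *EREG* (27.4), *EGFR* (21.2), *TGFA* (6.65), *SPRY4* (4.29), *ERBB3* (3.37), *ERBB2* (2.32) and *HBEGF* (1.10). For each of the 9 pairs of neighbors in this order, the ranges over the 6 libraries did not overlap. With the longest transcript as the length, the order was the same for all 10, but the ranges of *SPRY4* and *ERBB3* and those of *ERBB3* and *ERBB2* overlapped, so whether the ranges of these 3 are apart depends on the length taken.

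**Figure D1:**
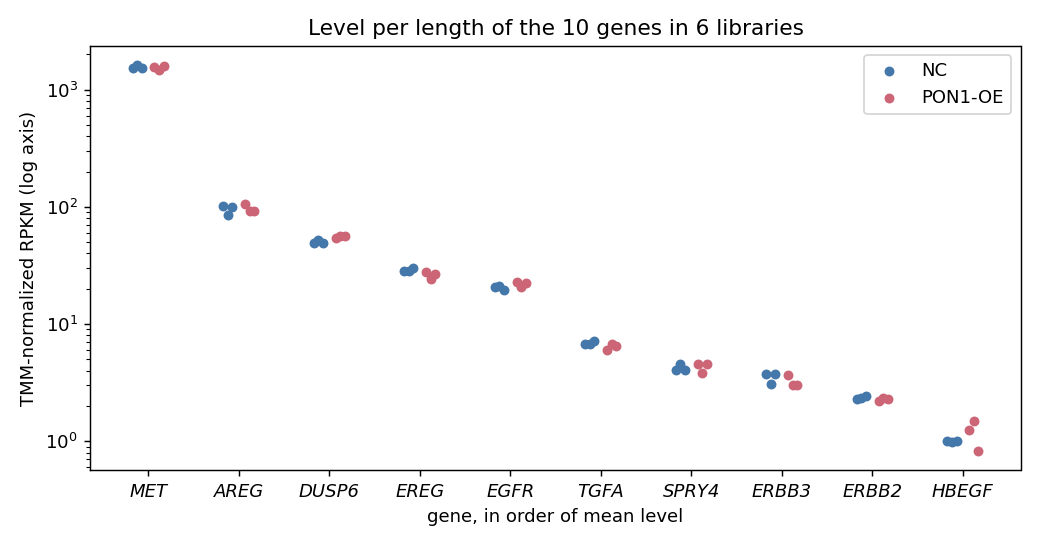
Level of each of the 10 genes in TMM-normalized RPKM (y axis, log scale) in 3 NC and 3 PON1-OE libraries, each point a library, with genes on the x axis in order of their mean. *MET* lies between 1468 and 1617 RPKM, 16.2 times the mean of *AREG*, the next gene, and *HBEGF* is lowest at 0.825 to 1.49 RPKM.

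*MET* (ENSG00000105976) spans 116672390 to 116798386 on chromosome 7, plus strand (GENCODE v29 annotation of GRCh38, used for all positions), and shares no exon with another annotated gene. The NC libraries held 178782, 205847 and 185146 counts of it, and the PON1-OE libraries 180147, 165219 and 174632. In 5 of the 6 libraries no gene had more counts than *MET*, and in PON1-OE replicate 2 *MET* ranked second. *MET* alone took 1.02% to 1.15% of the counts of a library. Per length, *MET* ranked 8 among the 20126 genes with a length in GENCODE v29, and 12 with the longest transcript as the length. There were 38.6 to 44.4 counts of *MET* for each count of *EGFR* in a library.

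The groups overlapped in *MET*, with 10827, 11380 and 10857 CPM among the NC libraries and 10969, 10332 and 11149 CPM among the PON1-OE libraries. The highest library was an NC library and the lowest a PON1-OE library. The NC mean was 11021 ± 311 CPM and the PON1-OE mean 10817 ± 429 CPM (± SD, n = 3). Its log2FC was −0.027, with a 95% confidence interval of −0.092 to 0.038 (adjusted p = 0.824, edgeR QL), which limits a difference to between 0.938 and 1.03 of the NC level. The sign changed to 0.0059 without PON1-OE replicate 2.

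The genes next to *MET* were examined after its level had been seen. Of the count table's genes, 10 have their 5′ end within 1000 kb of that of *MET*, itself included. The 3 genes just upstream on the same strand also had high levels, of which *CAV1* was nearest to the 1551 RPKM of *MET*. *CAV1*, which encodes the caveola protein caveolin-1, had 1315 RPKM at −147.6 kb from *MET* (5′ end to 5′ end). Its partner *CAV2*, annotated from 116287380 to 116508541, had 576 RPKM at −385.0 kb. *TES*, which encodes a focal adhesion protein, had 400.0 RPKM at −461.9 kb. *CAV1*, *CAV2* and *TES* ranked 9, 35 and 62 per length among 20126 genes. These distances, levels and ranks rest on the annotated ends and on all exons. Values with the longest transcript as the length are not given for these neighbors. The next gene upstream of *TES*, *TFEC*, had 0.187 RPKM. Downstream, *CAPZA2* had 21.3 RPKM at 138.7 kb and *ST7* 2.16 RPKM at 280.8 kb, against a median of 5.53 RPKM over all genes tested, and *ASZ1* and *CFTR* had no count in any library. *TES*, *CAV2*, *CAV1* and *MET* span 587.9 kb, from 116210493 to 116798386, and together took 2.08% to 2.25% of the counts of each library.

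**Figure D2:**
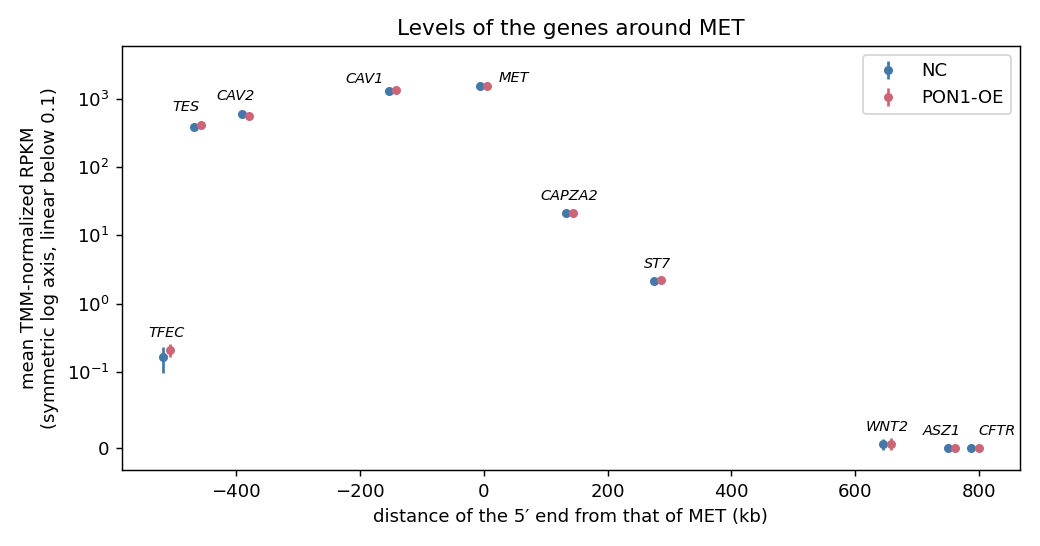
Mean level in TMM-normalized RPKM (y axis, symmetric log scale, linear below 0.1) of the 10 genes whose 5′ end is within 1000 kb of that of *MET* (x axis, distance in kb), with error bars of 1 SD over 3 libraries for NC and PON1-OE. *TES*, *CAV2*, *CAV1* and *MET* stand between 400.0 and 1551 RPKM over all libraries, and the next gene on either side is at 0.187 (*TFEC*) and 21.3 (*CAPZA2*).

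In none of these 4 genes did the test of PON1-OE against NC reach an adjusted p under 0.05. The log2FC was 0.087 for *TES* (unadjusted p = 0.0102, adjusted p = 0.258), −0.095 for *CAV2* (unadjusted p = 0.00945, adjusted p = 0.252) and 0.048 for *CAV1* (unadjusted p = 0.154, adjusted p = 0.637) (edgeR QL). The libraries of the groups were apart in *TES*, with higher values in PON1-OE, and in *CAV2*, with lower values.

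The transcript of the MET ligand was not detectable at this depth. *HGF* had 1 count in NC replicate 2 and 0 in the other 5 libraries, and *HGFAC*, which encodes a protease that activates HGF, had 0 in all 6. The floor of 3 counts was worth 0.166 to 0.192 CPM, depending on the library, and covers counting error only. The membrane inhibitors of HGF activation were present at low levels, with 189 to 236 counts of *SPINT1* and 67 to 117 of *SPINT2*. The related receptor gene *MST1R* had 49 to 73 counts (log2FC 0.28, adjusted p = 0.667). Of the 7 genes of the HGF list 5 were tested, and 0 had an unadjusted p under 0.05 (11.1% of all genes).

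*EGFR* (ENSG00000146648) lies on the plus strand of chromosome 7 from 55019021 to 55211628, where exons of the antisense gene *EGFR-AS1* overlap it on the other strand. Whether counting used strand is not given in the sources used here. *EGFR* was at 260.0, 266 and 245 CPM among the NC libraries and 284, 257 and 280 CPM among the PON1-OE libraries (NC mean 257 ± 10.9 CPM, PON1-OE mean 274 ± 14.3 CPM, ± SD, n = 3). PON1-OE replicates 1 and 3 were above every NC library, and PON1-OE replicate 2 lay within them. The log2FC was 0.091 (95% confidence interval 0.0012 to 0.18), and the QL test of edgeR gave an unadjusted p of 0.0473, or 0.445 once adjusted. The unadjusted p was under 0.05 in 5 of 12 alternatives and ranged from 0.00323 without PON1-OE replicate 2 (log2FC 0.13) to 0.245 without NC replicate 3 (log2FC 0.057).

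*ERBB2* (ENSG00000141736, plus strand of chromosome 17 from 39687914 to 39730426), which encodes the receptor without a ligand, had 23.9 CPM over all libraries, against 265 CPM of *EGFR*. Its values were 23.7, 24.2 and 24.9 CPM among the NC libraries and 22.8, 24.3 and 23.6 CPM among the PON1-OE libraries, and the groups overlapped. The log2FC was −0.043 (95% confidence interval −0.20 to 0.12, adjusted p = 0.892). Its exons overlap those of *MIEN1* and *PGAP3* on the other strand.

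*ERBB3* (ENSG00000065361, plus strand of chromosome 12 from 56076799 to 56103505) had 33.9, 27.7 and 33.9 CPM among the NC libraries and 33.4, 27.1 and 27.1 CPM among the PON1-OE libraries. In each group the libraries fell into higher values near 34 and lower values near 27, so the groups overlapped. The log2FC was −0.12 (95% confidence interval −0.31 to 0.070, adjusted p = 0.683). It was −0.21 without NC replicate 2 (unadjusted p = 0.0276) and −0.23 without PON1-OE replicate 1 (unadjusted p = 0.0256), and from −0.074 to −0.068 with each of the other libraries left out. *ERBB3* shares some exonic bases on its own strand with *AC034102.2*, which has a row in the count table. The fourth receptor of the family, *ERBB4*, had 0 counts in all 6 libraries.

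Among the ligands, *AREG* and *EREG* made up 88.4% to 90.8% of the CPM summed over the 4 ligand genes in a library. The genes are neighbors on the plus strand of chromosome 4, *EREG* (ENSG00000124882) from 74365143 to 74388751 and *AREG* (ENSG00000109321) from 74445134 to 74455009, with starts 80.0 kb apart. Other EGF-family ligand genes flank them. *EPGN*, upstream of *EREG*, had 0 counts in all 6 libraries, and *BTC*, downstream of *AREG* on the minus strand, was at 5.20 RPKM.

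The sequences just before the starts of this pair are shown because the genes are neighbors and have the highest levels of the 4 ligands. They are taken from RefSeq on GRCh38.p14, plus strand, the 120 bases that end at −3 from the start. Capitals mark letters of the motifs searched.
*EREG*, chr4:74365023-74365142: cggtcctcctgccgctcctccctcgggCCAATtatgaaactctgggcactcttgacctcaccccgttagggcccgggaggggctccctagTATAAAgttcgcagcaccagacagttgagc
*AREG*, chr4:74445014-74445133: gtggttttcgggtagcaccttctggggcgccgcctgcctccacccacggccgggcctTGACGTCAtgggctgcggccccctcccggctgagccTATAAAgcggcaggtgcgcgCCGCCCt

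Both stretches held the TATA box letters TATAAA, at −32 in *EREG* and −29 in *AREG*. These letters were in 10.7% of the 35116 windows of 250 bases before RefSeq starts, on either strand. *AREG* alone of the pair held TGACGTCA, the cyclic AMP response element, at −65, a motif of 1.65% of the windows, and *EREG* alone held CCAAT, at −95, a motif of 32.0% of the windows. The letters CCGCCC in *AREG* are the SP1 box GGGCGG on the other strand, in 42.6% of the windows. The AP-1 letters TGACTCA (4.2% of the windows) and the ETS core CGGAAG (16.5%) were in neither window of 250 bases. Such matches describe the letters in these windows and are not sites of binding.

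*EREG* had 162, 161 and 171 CPM among the NC libraries and 159, 137 and 151 CPM among the PON1-OE libraries. All 3 PON1-OE values lay under the NC values, by the narrowest margin in replicate 1. The NC mean was 165 ± 5.92 CPM and the PON1-OE mean 149 ± 10.9 CPM (± SD, n = 3), a log2FC of −0.14 (95% confidence interval −0.25 to −0.041). The QL test of edgeR gave an unadjusted p of 0.00847, which became 0.244 once adjusted, and the exact permutation test (two-sided) gave p = 0.1, the smallest that 3 libraries against 3 allow. The log2FC was negative in all 12 alternatives (−0.19 to −0.086), and the unadjusted p was under 0.05 in 10 of them. Without NC replicate 3 it was 0.0580, and without PON1-OE replicate 2, where the log2FC was −0.086, it was 0.0642.

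*AREG* had 167, 141 and 163 CPM among the NC libraries and 174, 150.4 and 151 CPM among the PON1-OE libraries. The lowest value was in NC replicate 2 and the highest in PON1-OE replicate 1, and the groups overlapped. The log2FC was 0.012 (95% confidence interval −0.11 to 0.14, adjusted p = 0.966), and it became −0.060 without NC replicate 2 and −0.057 without PON1-OE replicate 1. The difference in log2FC between *EREG* and *AREG* was not tested.

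*TGFA* (ENSG00000163235, minus strand of chromosome 2 from 70447280 to 70554193) had 33.6, 33.6 and 35.7 CPM among the NC libraries and 29.96, 33.2 and 32.0 CPM among the PON1-OE libraries. All 3 PON1-OE values lay under the NC values, replicate 2 by a small step. The log2FC was −0.11 (95% confidence interval −0.26 to 0.033, unadjusted p = 0.123, adjusted p = 0.598).

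*HBEGF* (ENSG00000113070, minus strand of chromosome 5 from 140332843 to 140346631) was the least abundant of the 10, with 50, 54 and 52 counts in NC and 62, 72 and 39 in PON1-OE. The coefficient of variation of the CPM was 1.08% over the 3 NC libraries and 28.4% over the 3 PON1-OE libraries, which held both the highest and the lowest value. At 50 to 54 counts, counting error alone gives on average a wider spread than that seen in NC, so the NC value is no measure of true spread. The difference in spread was not tested. The log2FC of 0.25 had the widest interval of the 10 (95% confidence interval −0.21 to 0.71, adjusted p = 0.744). When PON1-OE replicate 2 was left out it was 0.057 (unadjusted p = 0.814), and when replicate 3 was, 0.45 (unadjusted p = 0.04999, edgeR QL).

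*DUSP6* (ENSG00000139318, minus strand of chromosome 12 from 89347232 to 89353271), the ERK phosphatase, had the smallest p of the 10. Its values were 230, 241 and 226 CPM among the NC libraries and 252, 260 and 262 CPM among the PON1-OE libraries. All 3 PON1-OE libraries exceeded all 3 NC libraries (exact permutation test, two-sided, p = 0.1). The NC mean was 232 ± 7.60 CPM and the PON1-OE mean 258 ± 5.47 CPM (± SD, n = 3), a log2FC of 0.15 (95% confidence interval 0.071 to 0.23), or 1.11-fold. The QL test of edgeR gave an unadjusted p of 0.000804, which became 0.0858 once adjusted. The adjusted p was 0.0335 without the filter on low counts, 0.0157 in DESeq2 and 0.0462 without NC replicate 2, within a range of 0.0157 to 0.388 over 12 alternatives. The unadjusted p was under 0.05 in all 12. The gene *AC024909.2* on the other strand overlaps exons of *DUSP6* and has no row in the count table.

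Over the 6 libraries, the genes whose log2 CPM, centered on their own mean, lay nearest to that of *DUSP6* among 11957 genes compared included *FHIP1B* and *NPC1*, each with a root mean square difference of 0.016 on the log2 scale. *NPC1* encodes a lysosomal cholesterol transporter.

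*SPRY4* (ENSG00000187678, minus strand of chromosome 5 from 142310427 to 142326455), the other feedback gene, had 26.6, 29.9 and 26.8 CPM among the NC libraries and 30.2, 25.2 and 30.1 CPM among the PON1-OE libraries. PON1-OE replicate 2 was the lowest of all libraries and the other PON1-OE libraries the highest. The log2FC was 0.036 (95% confidence interval −0.14 to 0.21, adjusted p = 0.919), and it was −0.0043 and −0.0046 when PON1-OE replicates 1 and 3, in turn, were left out.

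**Figure D3:**
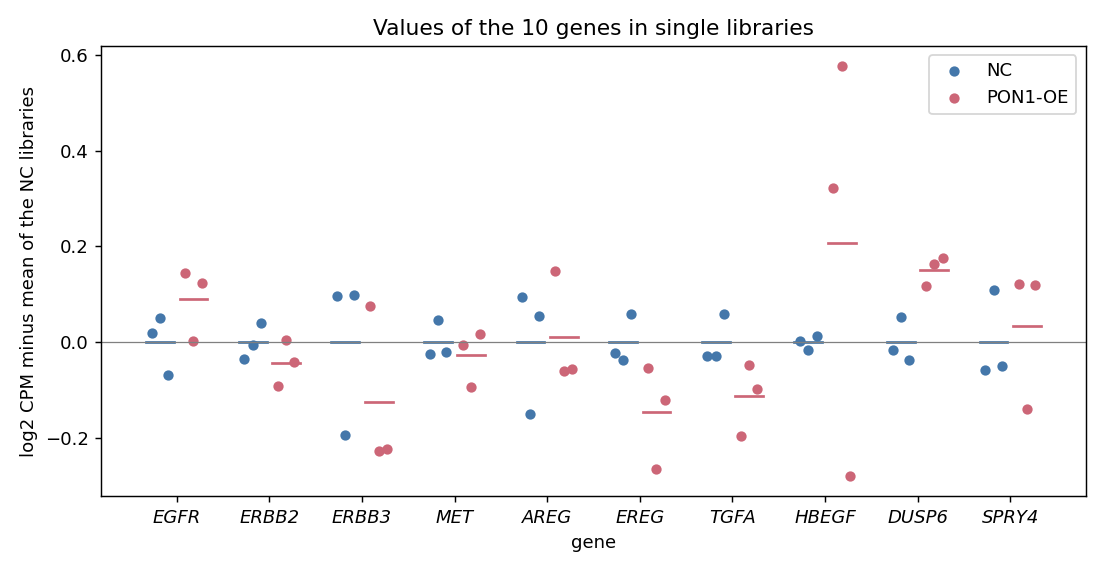
Log2 CPM minus the mean of the 3 NC libraries (y axis) for the 10 genes (x axis), each point a library and each bar the mean of a group. The groups are apart in *DUSP6* (PON1-OE above) and in *EREG* and *TGFA* (PON1-OE below), and they overlap in the other 7 genes.

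**Figure D4:**
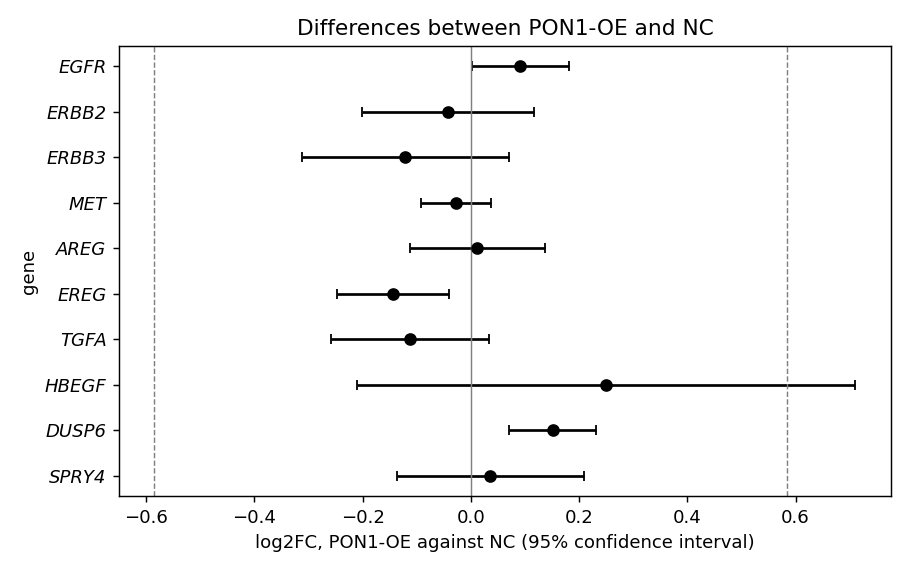
Log2FC of PON1-OE against NC with its 95% confidence interval (x axis) for the 10 genes (y axis), from the QL fit of edgeR, with dashed lines at a 1.5-fold difference in either direction. The intervals of *EGFR*, *EREG* and *DUSP6* leave out 0, and that of *HBEGF* alone reaches past 1.5-fold.

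In 3 of the 10 genes the groups were apart (16.1% of all genes), 1 with higher values in PON1-OE (8.32%) and 2 with lower values (7.74%). The log2FC was above 0 in 5 of the 10 (49% of all genes) and below 0 in the other 5 (51%). These counts, too, are a description only. With a difference of 1.5-fold also required, 0 of the 10 genes were called at either p. Except for *HBEGF*, the intervals of the genes lay inside that threshold, and those of *MET* and *AREG* lay within −0.11 and 0.14.

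Other genes of the pathway were taken from 8 lists, which hold 86 genes including the 10. As the lists were chosen with earlier results of these data known, their counts beside the shares over all genes are a description only. Outside the 10, 65 of 76 genes were tested. Of these, 2 had an adjusted p under 0.05, both with higher values in PON1-OE (0.502% of all genes), and 12 had an unadjusted p under 0.05, 9 higher (5.91% of all genes) and 3 lower (5.17%). Their median log2FC was 0.029, against −0.0025 over all genes tested.

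Both genes that passed belonged to the list of ERK response genes, of which 15 of 16 were tested. *PLAUR*, described here, encodes the urokinase receptor and is also induced by other pathways. *PLAUR* rose from 59.6, 67.4 and 58.8 CPM in the NC libraries to 71.5, 81.9 and 78.3 CPM with PON1-OE (log2FC 0.32, standard error 0.063, adjusted p = 0.0203, edgeR QL). All PON1-OE libraries exceeded all NC libraries. The adjusted p of *PLAUR* was above 0.05 when NC replicate 1 (0.122) or 3 (0.194) or PON1-OE replicate 2 (0.0657) or 3 (0.113) was left out.

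In the ERK response list 13 of the 15 tested genes had a log2FC above 0 (49% of all genes), and its median was 0.090, against 0.10 for the EGF-family ligands and −0.0025 over all genes. An unadjusted p under 0.05 was found for 5 genes, all with higher values in PON1-OE (5.91% of all genes). No test was made of the list as a whole, which was chosen with earlier results of these data known. Besides the 2 that passed, these were the transcription factor genes *ETV5* (log2FC 0.15, unadjusted p = 0.00376, adjusted p = 0.180) and *FOSL1* (log2FC 0.10, unadjusted p = 0.0143, adjusted p = 0.294), and *PHLDA1* (log2FC 0.089, unadjusted p = 0.0380, adjusted p = 0.415), whose unadjusted p was under 0.05 in 7 of 12 alternatives and reached 0.166 without NC replicate 3. The immediate early genes *EGR1* and *FOS*, which respond to ERK within minutes, had a log2FC of 0.22 (adjusted p = 0.476) and 0.40 (adjusted p = 0.504). *FOS* had only 41 to 56 counts per library. Other immediate early genes of the list lay nearer to no difference: *IER2* (log2FC 0.042, adjusted p = 0.791), *JUNB* (0.052, adjusted p = 0.761) and *IER3* (−0.0034, adjusted p = 0.987). *MYC* (log2FC −0.022, adjusted p = 0.890) and *CCND1* (log2FC 0.0047, adjusted p = 0.977) were close to 0.

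In the ERK feedback list, which holds *DUSP6* and *SPRY4*, 4 of the 10 tested genes had a log2FC above 0 (49% of all genes). The other 6 were below 0 (51%), and the median was −0.015. Of the 10 tested, only *DUSP6* had an unadjusted p under 0.05 (11.1% of all genes). Its relative *DUSP4*, a nuclear MAP kinase phosphatase, had lower values in every PON1-OE library than in any NC library (log2FC −0.072, unadjusted p = 0.0681, adjusted p = 0.496). *DUSP5*, another nuclear phosphatase of ERK, had higher values in every PON1-OE library (log2FC 0.060, unadjusted p = 0.111, adjusted p = 0.578).

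Of the 11 EGF-family ligand genes 7 were tested. Besides *EREG*, only *NRG1* had an unadjusted p under 0.05 (11.1% of all genes). It encodes neuregulin 1, a ligand of ERBB3. *NRG1* had 14.8, 13.3 and 13.4 CPM among the NC libraries and 19.6, 16.1 and 19.02 CPM among the PON1-OE libraries, so that every PON1-OE library was higher. The log2FC was 0.40 (95% confidence interval 0.19 to 0.61, unadjusted p = 0.000680, adjusted p = 0.0797, edgeR QL). With no filter on low counts the adjusted p was 0.0207, without PON1-OE replicate 2 it was 0.0227, and it reached 0.347 without NC replicate 3.

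Of the 6 genes of ligand release, 1 had an unadjusted p under 0.05 with lower values in PON1-OE (5.17% of all genes) and 1 with higher values (5.91%). *ADAM10*, a sheddase of EGF-family precursors, had lower values in every PON1-OE library (log2FC −0.21, unadjusted p = 0.00520, adjusted p = 0.211). *RHBDF1*, an inactive rhomboid protein that acts on the sheddase ADAM17, had higher values in every PON1-OE library (log2FC 0.33, unadjusted p = 0.00568, adjusted p = 0.217). *ADAM17* itself had a log2FC of −0.025 (adjusted p = 0.931).

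Of the 17 adaptor and RAS-ERK genes all were tested, with a median log2FC of 0.0051. An unadjusted p under 0.05 was found for 3 (11.1% of all genes), 2 lower (5.17%) and 1 higher (5.91%) in PON1-OE. Among them were the kinase gene *MAP2K2* (log2FC −0.16, unadjusted p = 0.00472, adjusted p = 0.200), with lower values in PON1-OE, and the RAS activator gene *SOS2* (log2FC 0.27, unadjusted p = 0.0364, adjusted p = 0.408). The unadjusted p of *SOS2* was under 0.05 in 7 of 12 alternatives, and its log2FC was 0.17 without NC replicate 1 (unadjusted p = 0.205) and 0.13 without PON1-OE replicate 1 (unadjusted p = 0.305). *NRAS*, *HRAS* and *MAPK3* had unadjusted p of 0.484 to 0.841.

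Of the 12 genes of receptor turnover 10 were tested, and 1 had an unadjusted p under 0.05 (11.1% of all genes). *CBLB*, a ubiquitin ligase that marks active receptors for breakdown, had an unadjusted p under 0.05 (log2FC 0.16, unadjusted p = 0.0331, adjusted p = 0.398), which held in 8 of 12 alternatives (log2FC 0.11 to 0.22, unadjusted p up to 0.167 without NC replicate 3). *ERRFI1*, an inhibitor of EGFR that ERK induces, was among the more abundant genes of the lists at 114 RPKM and had a log2FC of −0.053 (adjusted p = 0.636).

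**Figure D5:**
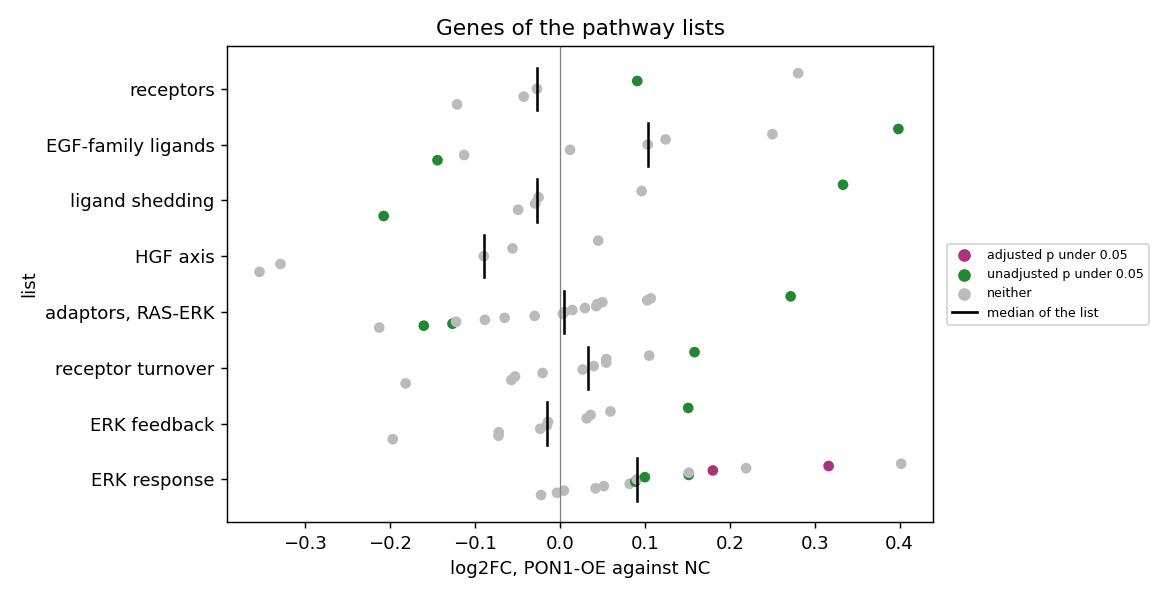
Log2FC of PON1-OE against NC (x axis) for each tested gene of the 8 pathway lists (y axis), colored by adjusted and unadjusted p (edgeR QL), with a black line at the median of each list. In the ERK response list 13 of 15 points lie above 0, *PLAUR* among them, and the medians of 4 lists lie below 0: the HGF axis (−0.090), ligand shedding (−0.027), the receptors (−0.027) and the ERK feedback genes (−0.015).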

How the data were processed

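As deposited, a single table gave each gene's estimated counts, not normalized, for 3 PON1-OE and 3 NC libraries. Of the values, 10.5% were not whole numbers and were rounded before testing. The submitters' processing notes name Bowtie2 2.2.8, HISAT2, StringTie 1.3.1 and DESeq2. Neither the build nor the annotation behind the counts is given in the sources used here. Genes were matched by Ensembl identifier to GENCODE v29 (GRCh38) for positions and exon lengths, which 20126 of 20381 identifiers allowed. Strand use in counting is not given either.

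In R 4.3.3, filterByExpr kept 11958 genes, and TMM factors and edgeR 4.0.16 were used for the test (glmQLFit, glmQLFTest) without covariates, with Benjamini-Hochberg adjustment over the genes tested. The common dispersion was 0.00192. Exact permutation tests used log2(CPM + 0.5) and were two-sided. Library totals were 15706664 to 17948372. Intervals cover counting error and the spread between libraries only, and the floor covers counting error only. Pairs of libraries of a group differed by more than sampling noise (chi-square per degree of freedom 2.09 to 3.96). As alternatives, the filter was dropped or raised to 10 counts in each library, TMM was replaced by RLE, a replicate block was added, DESeq2 1.42.0 or limma-voom (limma 3.58.1) took the place of edgeR, single libraries were left out, and a 1.5-fold difference was required. The fits were tested on data simulated with the common dispersion for every gene, so the shares recovered may be higher than in the real data. With a simulated log2FC of 0.3 in either direction, edgeR recovered 52% of the changed genes and DESeq2 40%. With 0.6 they recovered 85% and 81%. Of 140 genes that edgeR called in the simulation, 3 had not been changed. Smaller differences were not simulated, and the log2FC of the 10 genes lay between −0.14 and 0.25. Named were *PON1*, the 10 genes, list genes with an adjusted p under 0.05, up to 4 further per list with an unadjusted p under 0.05, genes at or near 0, and the 3 genes nearest to the pattern of the gene with the smallest p. The genes around *MET*, *DUSP4*, *DUSP5*, *EGR1*, *FOS*, *MYC*, *CCND1*, *ERRFI1*, *ADAM17*, *MST1R*, *SPINT1*, *SPINT2* and the RAS and ERK genes were named outside this rule, after their values were seen. *IER2*, *IER3* and *JUNB* were also named outside this rule. The members and lists were chosen with earlier results of these data known. RefSeq windows of 250 bases before a start were matched by symbol for 9 of the 10 genes. Some genes that this rule names, or that stand in the lists, are not reported here, while counts over lists and over all genes include them.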

Additional observations from a re-analysis of the deposited data

How the results depend on the processing

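The log2FC of *EGFR*, *ERBB2*, *ERBB3*, *EREG*, *TGFA*, *HBEGF* and *DUSP6* kept its sign under every alternative that gave a value (12 for *EGFR*, *EREG* and *DUSP6*, 11 for the others, for which DESeq2 gave no adjusted p and is left out), and that of *PON1* under all 10 that gave an adjusted p. *PON1* has fewer than 10 counts in every NC library, and DESeq2 gave it no adjusted p. With single libraries left out, the log2FC ranged from −0.049 to 0.0059 for *MET*, from −0.060 to 0.059 for *AREG*, from −0.0046 to 0.12 for *SPRY4*, from 0.057 to 0.45 for *HBEGF*, from −0.23 to −0.068 for *ERBB3* and from 0.13 to 0.18 for *DUSP6*. *DUSP6* also passed the adjusted threshold without the filter (log2FC 0.15, adjusted p = 0.0335) and in DESeq2 (log2FC 0.15, adjusted p = 0.0157). The number of the 10 genes past the adjusted threshold was 0, and 1 without the filter, 1 in DESeq2 and 0 to 1 with single libraries left out. The number with an unadjusted p under 0.05 was 3, ranged from 1 to 4 with single libraries left out, and was 0 with a 1.5-fold difference required. Outside the 10, list genes past the adjusted threshold numbered 2, and 0 to 2 with single libraries left out, with 0 when NC replicate 3 or PON1-OE replicate 3 was missing and 1 when NC replicate 1 was.

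Over all genes, the count past the adjusted threshold was 81. It was 177 without the filter, 123 in DESeq2, 6 with a 1.5-fold difference required and 11 to 103 with single libraries left out. It was 34 without NC replicate 1, 11 without NC replicate 3, and 44 or 18 when PON1-OE replicate 1 or 3 was missing. DESeq2 gave 857 genes an unadjusted p under 0.05, against 1325. With the replicate number as a block the count was 40, and no adjusted call among the 10 genes changed. Same-numbered libraries did not deviate together (r between −0.023 and 0.020 over genes), so the numbers were not taken as pairs. With the longest transcript as gene length, an alternative chosen after seeing the data, *MET* ranked 12 instead of 8. The cause of these shifts was not tested. *HBEGF* rests on 39 to 72 counts per library.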
